A study of Homo sapiens with 4 samples.

Results

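IMMP2L, CPED1, PRKCB and ZMYND8 are long human protein-coding genes that each held several sites of N6-methyladenosine (m6A) in the deposited m6A-SAC-seq table of K562 chromatin-associated RNA. Their sites were taken as every listed adenine whose position and strand in hg38 fall within the bounds of the gene, which gave 13 of the 275 sites in the table. IMMP2L held 4 of them, and CPED1, PRKCB and ZMYND8 held 3 each. The genes were selected on their length and on that number of sites, itself a readout of the experiment, so both are given as a description and not as a result. The rule uses no level, although every listed site had to pass the authors' filters on them. In the annotation, GENCODE release 44, 111 protein-coding genes contained at least 1 site on their strand, and 84 of these held 1, 18 held 2 and 9 held 3 or more. The other genes with 3 or more were PLEKHB2 and VEGFA with 4 each and CCNL2, DDX17 and the read-through gene ENSG00000239920 with 3 each.

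The experiment used wild-type K562 cells, an established line from a chronic myeloid leukaemia, although the labels also give a hepatoma as the cell type. Ribosomal RNA was removed from the RNA of the chromatin fraction, and the RNA was then either kept as input or pulled down with purified RBFOX2 (RBFOX2 IP), so the binding took place outside the cell. Each of these was sequenced after treatment with recombinant MjDim1 and without it. There were 4 libraries, 1 per condition, so that differences between conditions could be described but not tested.

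METTL3 and METTL14 methylate adenines in RNA while it is being transcribed, so m6A is found in introns as well as in mature transcripts. Their preferred target is the adenine of the consensus DRACH, where D is any base but C, R is a purine and H is any base but G. MjDim1 moves an allyl group onto m6A, and after iodine treatment the reverse transcriptase misreads that adenine, so the mutation frequency gives a level of m6A at a single base. RBFOX2 is an RNA-binding protein best known as a splicing regulator that binds UGCAUG and its core GCAUG in introns. The 4 genes do not belong to one pathway. IMMP2L is a catalytic subunit of the inner mitochondrial membrane peptidase, which cuts the sorting signals of imported proteins. CPED1 encodes a little-studied protein with a cadherin-like and a PC-esterase domain. PRKCB is protein kinase C beta, a serine/threonine kinase that calcium and diacylglycerol activate. ZMYND8 is a chromatin reader that binds modified histone tails.

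The table lists 2 m6A levels in percent for each site and the ratio of the second to the first. It does not name the library of either level, so they are called the first and the second level here. Read counts are not part of the table, so the depth at a site is unknown and no error could be set on a single level. In the authors' filters a mutation frequency had to be above 5%, and the lowest level of any site in the table was 5.02%. A minimum number of mutated reads was required as well. The lowest level that could be listed at a site therefore also depended on its depth, which is unknown.

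The sequences around the sites are described next. At each of the 13 sites the adenine followed a G, which is near the share over the table, 250 of all 275 sites. The motif class in the table matched hg38 at all 13. AGAUG, centred on the listed adenine, was the 5-mer at 5 of the 13 sites, with at least 1 in every gene, against 17.5% of all sites in the table and 12 of the 79 that lay in introns of other protein-coding genes (15.2%). The only AGAUG sites of PRKCB and ZMYND8 lay in sequence that is repeated in the genome, as described below. The stretches around 4 of the 5 AGAUG sites are printed, because this 5-mer is the one that recurs across the 4 genes. They are given as RNA from hg38, 5′ to 3′ on the strand of the gene, with the 5-mer in capitals.
IMMP2L site 4, chr7:111239311-111239335, minus: agggccuaggAGAUGgaaugcuggc
CPED1 site 2, chr7:121151921-121151945, plus: uauuccuugcAGAUGguuucacuga
CPED1 site 3, chr7:121152260-121152284, plus: acaugcuugaAGAUGaucuuuccag
PRKCB site 3, chr16:23928727-23928751, plus: uuuuguuuugAGAUGgggccuugcu

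At 4 of the 5 AGAUG sites the next base was G, among them PRKCB site 3 and ZMYND8 site 2 in repeated sequence. The next base was not counted at AGAUG sites elsewhere, so no share stands beside this. CPED1 site 1 carried the related UGAUG, so that GAUG was found at 6 of the 13 sites and at 83 of all 275.

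DRACH held the site at 3 of the 13, against 33.8% of all sites and 17 of the 79 other intronic sites of protein-coding genes (21.5%). The 5-mer was AGACU at IMMP2L site 2 and PRKCB site 1 and AGACC at IMMP2L site 3. The AGACU sequences are shown because this 5-mer of the consensus of METTL3 and METTL14 was found in more than 1 of the genes.
IMMP2L site 2, chr7:111372074-111372098, minus: acagaaccucAGACUggcaguugug
PRKCB site 1, chr16:23865336-23865360, plus: ucugucacucAGACUgagguacagu

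No DRACH was found at the sites of CPED1 and ZMYND8. The other 5-mers were UGAUC at IMMP2L site 1, CGACC at PRKCB site 2, UGAAA at ZMYND8 site 1 and AGAGU at ZMYND8 site 3. The sequences of ZMYND8 site 1, the only one of the 13 in an exon, and of CPED1 site 1, which had the highest level of the 13, are printed for reference.
ZMYND8 site 1, chr20:47294665-47294689, minus: auucagaaaaUGAAAcagccagggg
CPED1 site 1, chr7:120994666-120994690, plus: uuguuguuacUGAUGgaagcaggaa

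The sites lay almost entirely in introns. Over all transcripts of the genes, 12 of the 13 sites were intronic and 1 was exonic, whereas 48.7% of all sites in the table were in an intron of a gene on their strand. These shares are not like for like. The genes were selected on length, and the sites of the table include some outside any gene. Of the 12 intronic sites, 9 were more than 2 kb from the nearest exon of any transcript of the gene, as were 46 of the 79 other intronic sites of protein-coding genes (58.2%). No other gene, on either strand, was annotated at any of them.

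IMMP2L (ENSG00000184903.10, chr7:110662644-111562517, minus strand) spans 900 kb, ranks 99 by length among 20046 protein-coding genes and 2 among the 111 with a site. All 4 of its sites lay in intron 3 of the 5 introns of its canonical transcript. That intron is 524 kb long, and the sites were 84.7, 115, 185 and 248 kb from the exon upstream. They were thus spread over 163 kb of RNA that contains no canonical exon, with 30.4, 70.2 and 62.5 kb between neighbours, in the upstream part of the intron. With exons of all transcripts counted, the nearest exon was 9.57, 18.5, 88.7 and 151 kb away.

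PRKCB (ENSG00000166501.14, chr16:23835983-24220611, plus strand) spans 385 kb. Its 3 sites also shared 1 intron, intron 2 of 16, which is 151 kb long. They lay 27.9, 74.4 and 91.3 kb from the exon upstream and within the first 24.1% of the gene. The distances between neighbouring sites were 46.5 and 16.9 kb.

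CPED1 (ENSG00000106034.18, chr7:120988697-121297442, plus strand) spans 309 kb. Site 1 was in intron 2 of 22, 5.98 kb from the 5′ end of the gene and 0.597 kb from the nearest exon of any transcript. Sites 2 and 3 were in intron 16, which is 94.6 kb long, and lay 339 nt from each other. They were the closest pair among the 13.

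ZMYND8 (ENSG00000101040.20, chr20:47209214-47356889, minus strand) is the shortest of the 4, at 148 kb, and ranks 30 by length among the 111. Site 1 was in exon 5 of the 23 exons of the canonical transcript, 103 nt into an exon of 114 nt. It lay in an exon in 18 of the 19 transcripts that span it, and in 17 of them this exon is coding there. Sites 2 and 3 were in intron 9 and intron 17, which are 1.35 and 2.44 kb long, so they were 503 and 804 nt from the nearest exon. The median length was 27.4 kb over all protein-coding genes and 78.4 kb over those with a site.

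**Figure D1:**
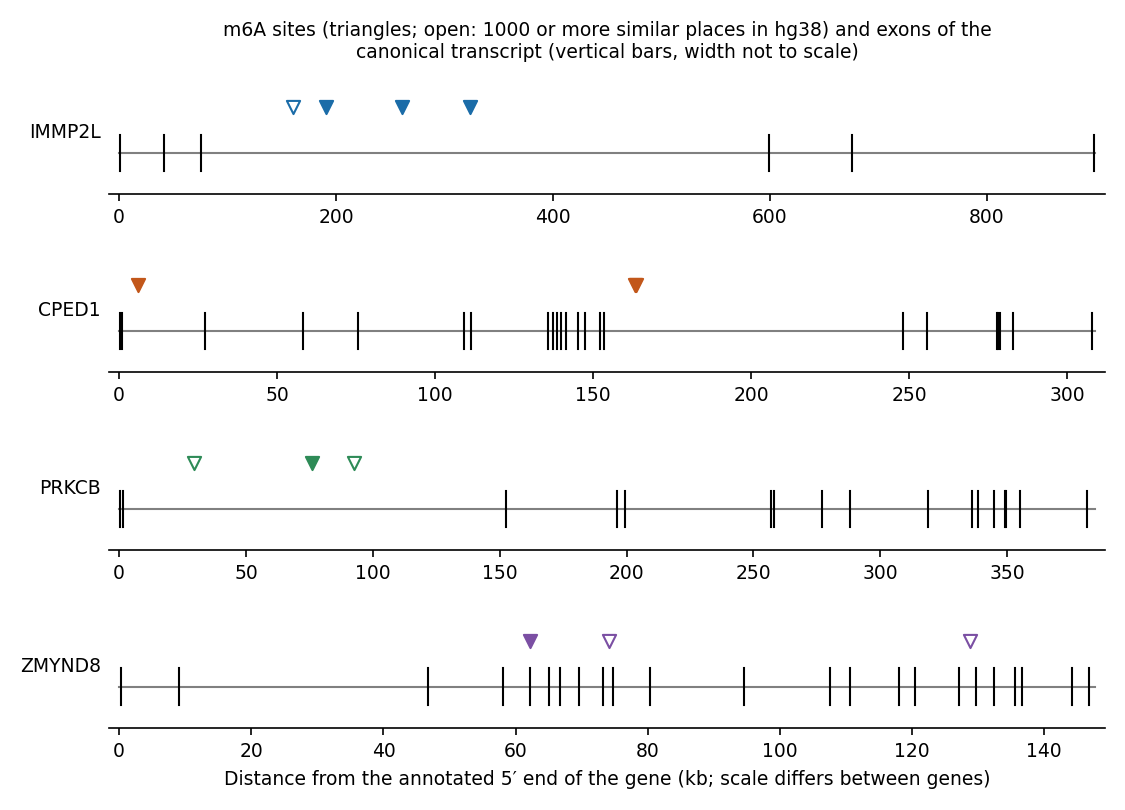
Map of the 4 genes from the annotated 5′ end (x axis, kb, with a separate scale for each gene), with exons of the canonical transcript as vertical bars and m6A sites as triangles, open where the 101 nt around the site have 1000 or more similar places in hg38. The 4 IMMP2L sites and the 3 PRKCB sites each fall in a single intron, and CPED1 sites 2 and 3, 339 nt apart, overlap at this scale.

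In IMMP2L the second level was the higher at all 4 sites, but by very different amounts. In 5′ to 3′ order the first level was 19.4%, 10.8%, 6.67% and 17.2%. The second level was 24%, 23.1%, 32% and 21.4%. The highest first level was 2.91 times the lowest, against 1.49 times for the second level, and the ratios were 1.24, 2.13, 4.80 and 1.24. The 2 sites in DRACH, sites 2 and 3, had the 2 lowest first levels and the 2 highest ratios of the gene. At the other 4 AGACC sites of the table, the 5-mer of site 3, the median levels were 13.5% and 49.2% and the ratios lay between 1.42 and 5.37.

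CPED1 held both the largest second level of the 13 sites and the only site at which the second level was not the higher. Site 1, in UGAUG, was listed at 9.23% and 41.2%, a ratio of 4.46. Site 2, in AGAUG, was listed at 19.7% and 19.5%, a ratio of 0.990. Site 3, in AGAUG 339 nt downstream, was listed at 11.5% and 31.25%, a ratio of 2.72. The close pair therefore shared an intron and a 5-mer but not a ratio. At the 22 UGAUG sites outside the 4 genes the medians were 7.45% and 12.2%, with ratios from 0.860 to 4.72, so CPED1 site 1 lay inside that range and near its upper end.

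PRKCB had the lowest second levels and the narrowest spread. Site 1, in AGACU, had a first level of 7.81%, site 2, in CGACC, of 7.61% and site 3, in AGAUG, of 8.33%. The second levels were 12.2%, 16.3% and 12.2%, and the ratios were 1.57, 2.14 and 1.46. The 3 sites were alike in both levels although their 5-mers differed.

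ZMYND8 had the largest median difference of the 4 genes, 31.4 percentage points. Site 1, in the coding exon, was listed at 7.04% and 38.5%, a ratio of 5.46. Site 2, in AGAUG, was listed at 5.41% and 38.1%, a ratio of 7.05, which ranked 5 among all 275 sites. Site 3, in AGAGU, was listed at 15.2% and 30.4%, a ratio of 2.00. All 3 second levels were at least 30.4%, while 2 of the 3 first levels were near the 5% minimum for the mutation frequency. The 2 other AGAGU sites of the table had ratios of 2.13 and 4.65.

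**Figure D2:**
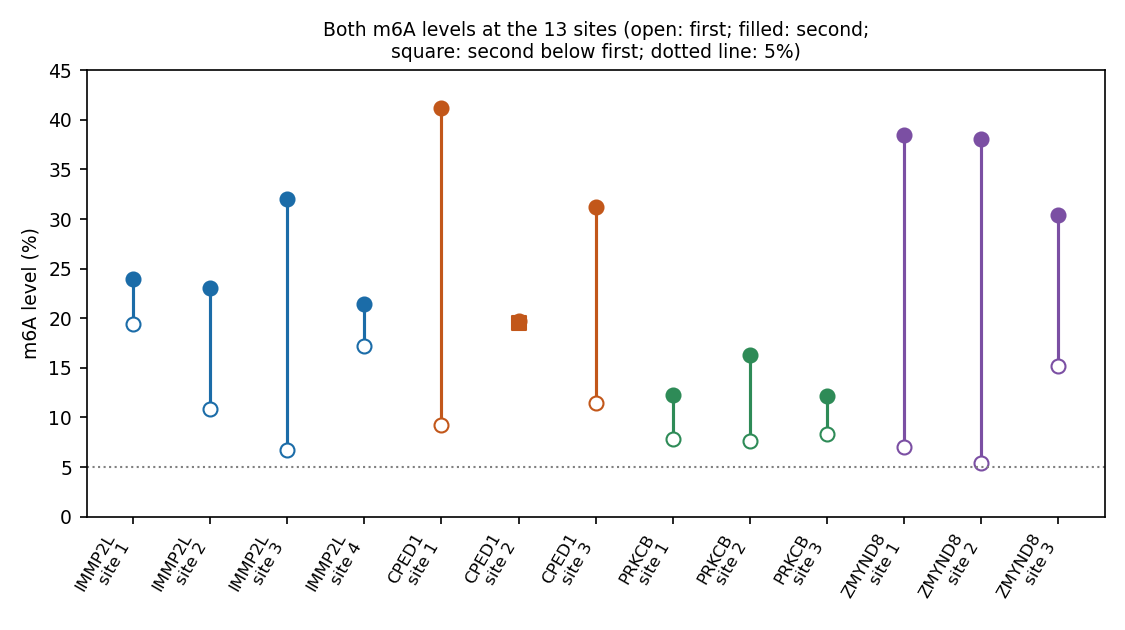
The first (open symbols) and second (filled symbols) m6A level in percent at each of the 13 sites, in 5′ to 3′ order within each gene, with the 5% minimum as a dotted line. The second level is the higher at 12 sites, PRKCB sites end at 12.2% to 16.3%, ZMYND8 sites end at 30.4% to 38.5%, and the square marks CPED1 site 2, where the levels were 19.7% and 19.5%.

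Ordered by the median second level, the genes ran from ZMYND8 (38.1%) over CPED1 (31.25%) and IMMP2L (23.5%) to PRKCB (12.2%). Both ends of this order rest largely on repeated sequence, described below, in which ZMYND8 sites 2 and 3 and PRKCB sites 1 and 3 lay. The medians of these genes were the levels of ZMYND8 site 2 and PRKCB site 1. The ranges over sites of ZMYND8, CPED1 and IMMP2L all overlapped each other. The highest second level in PRKCB, 16.3%, was below the lowest in CPED1, 19.5%, and in IMMP2L, 21.4%. By the median first level the order was IMMP2L (14.0%), CPED1 (11.5%), PRKCB (7.81%) and ZMYND8 (7.04%). The ranges of the first level overlapped between every pair of genes except CPED1 and PRKCB, where PRKCB lay below all CPED1 sites. The order by the ratio was ZMYND8 (median 5.46), CPED1 (2.72), IMMP2L (1.69) and PRKCB (1.57). These are comparisons between the listed sites of each gene, which share RNA and libraries, and they were not tested.

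Over the 13 sites the second level was above the first at 12, where 85.8% of all sites in the table showed the same, so this share was near the background. The ratio reached 2 at 8 of the 13, against 42.5% of all sites. It did so at 44 of the 79 other intronic sites of protein-coding genes (55.7%). The median ratio was 2.13 at the 13 sites, 1.73 at all 275 and 2.16 at those 79 intronic sites. The median ratio in the 4 genes was thus close to that of other introns, and neither difference was tested. The 13 sites had a median first level of 9.23% and a median second level of 24%, against 13.3% and 33.3% at the other intronic sites and 10.9% and 22.7% at all sites. The highest levels of the table, up to 87.5% for the first and 100% for the second, were not found in these genes, where the highest were 19.7% and 41.2%.

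The first level is the denominator of the ratio, and at the extremes of the 13 sites a low first level went with a high ratio. The 3 sites with the highest ratios, ZMYND8 sites 2 and 1 and IMMP2L site 3, were also the 3 with the lowest first levels. At these the first level was 5.41%, 7.04% and 6.67%, and the difference of the second level from the first was 32.7, 31.4 and 25.3 percentage points. CPED1 site 1 had the next highest ratio, with a difference of 31.9 percentage points from a first level of 9.23%. The 3 PRKCB sites, with first levels of 7.61% to 8.33%, did not follow this. Their ratios were only 1.46 to 2.14 and their differences 3.86 to 8.67 percentage points. At the other end, IMMP2L sites 1 and 4 and CPED1 site 2 had the 3 highest first levels and differences of 4.60, 4.19 and -0.196 percentage points.

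The AGAUG sites did not share a level. Their first levels ran from 5.41% in ZMYND8 to 19.7% in CPED1 and their second levels from 12.2% in PRKCB to 38.1% in ZMYND8. The ratios were 0.990, 1.24, 1.46, 2.72 and 7.05, with a median of 1.46, and the 43 AGAUG sites outside the 4 genes had a median of 2.21 and a range of 0.625 to 8.10. The highest and the lowest ratio of the 13 sites were both at an AGAUG. At the 2 AGACU sites the ratios were 1.57 and 2.13, beside a median of 1.34 over the 33 AGACU sites elsewhere.

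GCAUG, searched on the strand of the gene, lay wholly within 50 nt of 7 of the 13 sites, against 33.5% of all sites and 25 of the 79 other intronic sites (31.6%). In UGCAUG, the longer form, which contains GCAUG, it lay within 50 nt of 3 of the 13 and of 17.5% of all sites. The nearest base of the motif was between 21 and 45 nt from these 7 sites, on the upstream side at IMMP2L sites 2 and 3 and CPED1 site 2 and on the downstream side at IMMP2L site 1, CPED1 site 3, PRKCB site 3 and ZMYND8 site 3. No GCAUG lay within 20 nt of a site. The stretches with the motif of RBFOX2 (in capitals) are shown for the 2 sites with UGCAUG outside repeated sequence. They are followed by those of PRKCB site 3 and ZMYND8 site 3, which resemble each other and lie near sites in repeated sequence.
Near IMMP2L site 2, chr7:111372099-111372120, minus: aauuuuuaUGCAUGauguuggc
Near CPED1 site 3, chr7:121152302-121152323, plus: auaaauauUGCAUGugggcuuc
Near PRKCB site 3, chr16:23928770-23928790, plus: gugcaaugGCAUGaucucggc
Near ZMYND8 site 3, chr20:47228039-47228059, minus: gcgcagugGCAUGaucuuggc

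The levels did not separate the sites with GCAUG from those without it. At the 7 sites with GCAUG the ratio had a median of 2.00 and ranged from 0.990 to 4.80, and at the other 6 it had a median of 3.30 and ranged from 1.24 to 7.05. The median second level was 24% with GCAUG and 29.8% without. CPED1 sites 2 and 3 both had GCAUG within 50 nt, on opposite sides, and their ratios were 0.990 and 2.72.

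**Figure D3:**
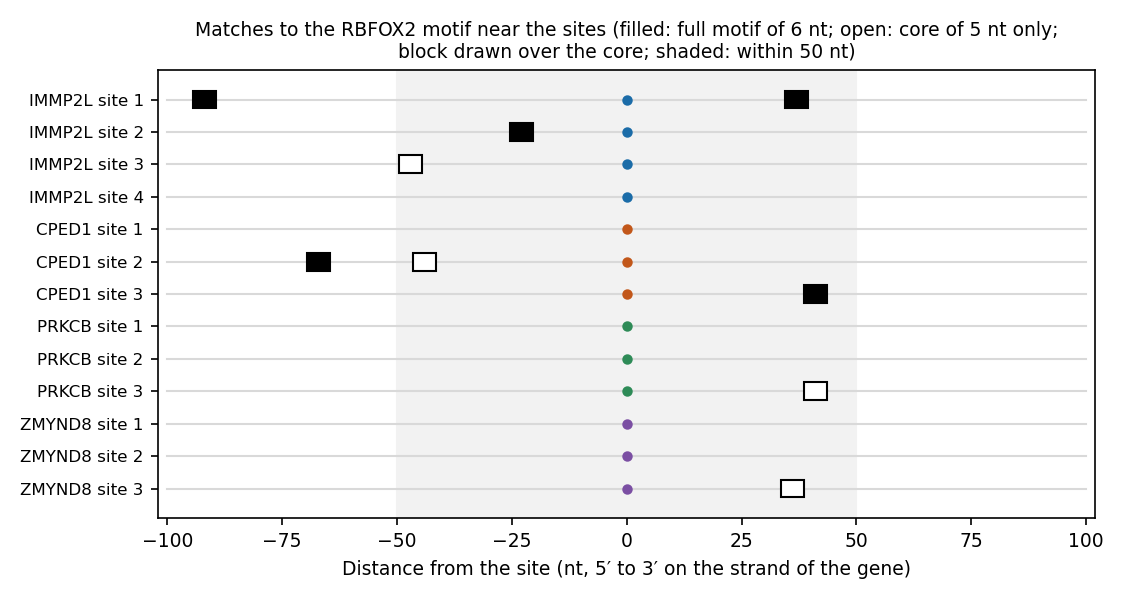
Matches to the RBFOX2 motif within 100 nt of each site (x axis, nt from the site at 0, 5′ to 3′ on the strand of the gene), with a filled block where the full motif of 6 nt was found and an open block where its core of 5 nt was not part of it. Of the 9 matches 5 were upstream and 4 downstream, all at 7 sites, and none was within 20 nt, a distance at which no share over all sites was computed.

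Sequence around some of the sites was repeated in the genome. For each of the 13 sites the 101 nt centred on it were searched against hg38, and places with at least 80% identity over at least 80% of the length were counted, the site itself included. This count was not made for the other sites of the table, so no share stands beside it. The counts were 371819 for IMMP2L site 1, 50207 for PRKCB site 3, 15022 for ZMYND8 site 3, 13688 for ZMYND8 site 2 and 1530 for PRKCB site 1. CPED1 site 1 had 4, and the other 7 sites had only themselves. IMMP2L site 1, PRKCB site 3 and ZMYND8 site 2 also aligned, in the antisense direction, to RN7SL1, the gene of the 7SL RNA from which Alu elements, the most numerous interspersed repeats of the human genome, derive. Of all sites 7.64% aligned to it, and of the 79 other intronic sites 14 did (17.7%). The aligned stretches were 70, 44 and 43 nt long with 72.9%, 86.4% and 83.7% identity.

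Exact copies of a shorter stretch were found at fewer sites. The 31 nt centred on the site had a further exact copy in hg38 at 2 of the 13, against 18.2% of all sites and 20 of the 79 other intronic sites (25.3%), with 7 copies in all at IMMP2L site 1 and 3 at ZMYND8 site 3. The 18.2% is slightly too high, because it includes sites outside the assembled chromosomes whose 31 nt had no copy on those chromosomes. The 21 nt around ZMYND8 site 2, the site with the highest ratio, had 4374 copies, although its 31 nt had 1. Where reads of such a repeat come from cannot be told from the table, and the part of this in the levels was not tested. The 5 sites with 1000 or more similar places had ratios of 1.24, 1.57, 1.46, 7.05 and 2.00, with a median of 1.57. Among these 5, all but ZMYND8 site 2 lay between 1.24 and 2.00. At the other 8 the median was 2.43 and the range 0.990 to 5.46. A ratio of at least 2 was found at 2 of the 5 and at 6 of the 8. Of the 7 sites with GCAUG within 50 nt, 3 were among the 5 in repeated sequence and 4 among the other 8. AGAUG was the 5-mer at 2 of the 5 and at 3 of the other 8. Those 2 were the only AGAUG sites of PRKCB and ZMYND8.

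Among the other protein-coding genes with several sites, PLEKHB2 was, like IMMP2L, CPED1 and PRKCB, intronic at all of its 4 sites, with ratios of 1.17 to 3.05. ENSG00000239920, whose locus overlaps the globin genes HBE1 and HBG2 on the same strand, was intronic at its 3 sites, with ratios of 1.55 to 2.83. Repeated sequence was found in these genes too, with up to 12280 exact copies of the 31 nt at a site of ENSG00000239920 and up to 4 at one of PLEKHB2. The sites of VEGFA, CCNL2 and DDX17 were all exonic, with ratios of 0.911 to 2.22, 0.857 to 3 and 1.11 to 2.56. The highest ratio in ZMYND8, 7.05, and those in IMMP2L and CPED1, 4.80 and 4.46, were above all of these, which are single sites with unknown coverage.

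Among the 23 other protein-coding genes with at least 2 sites, the gene nearest in its 2 median levels, by distance on the log2 scale over these levels, was ZNF609 for IMMP2L (13.5% and 27.9%), GABRE for CPED1 (13.2% and 31.5%), VMP1 for PRKCB (8.71% and 13.1%) and AARS1 for ZMYND8 (8.03% and 23.7%). The distance was 0.25, 0.20, 0.19 and 0.71, largest for ZMYND8. None of the 16 relatives and partners looked up held a site, where 0.554% of all protein-coding genes did, so this says nothing particular about them. These were IMMP1L and TIMM21 for IMMP2L, the 7 genes PRKCA, PRKCD, PRKCE, PRKCH, PRKCI, PRKCQ and PRKCZ for PRKCB, and ZMYND11, ZNF592, ZNF687, KDM5C, CHD4, GATAD2A and GATAD2B for ZMYND8. The table lists only adenines that passed the authors' filters, so a gene without a site may be unmethylated, poorly covered or not expressed, which cannot be told apart here.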

How the data were processed

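The samples were 4 m6A-SAC-seq libraries, 1 per condition, grouped by their titles. Per the labels and the study's methods, the authors clipped reads with Cutadapt 2.10, removed duplicates by molecular identifiers, aligned to hg38 with STAR 2.7.3a and called mutations with VarScan, keeping adenines by their P value, depth, number and share of mutated reads and excess over the library without MjDim1. The deposited table gives for each site its 5-mer, 2 levels in percent and their ratio, second over first. Every ratio equalled that quotient within 0.01%, and every 5-mer was that of hg38. There were 0 other columns of per-sample values. Sites removed by the filters are not analysed here, and coverage is unknown.

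Sites were annotated with GENCODE release 44, an exon of any transcript of the gene taking priority over an intron. Where several genes on the strand held a site, the longest protein-coding one was used. Sequence was read from hg38 with Python 3.11.15, pysam 0.24.0 and samtools 1.23.1. Exact copies of 21 nt and 31 nt were counted on both strands of the assembled chromosomes, and similar places with BLAST 2.17.0 (word size 16). Alignments to RN7SL1 had an E value of at most 0.001. The functions were tested on simulated sequence and gene models. Figures were drawn with matplotlib 3.10.9. No test was run, because each condition had 1 library and sites of a gene are not replicates, so lists are given by counts and medians beside those of all 275 sites. All sites of the 4 genes are named. Other genes are named if they are protein-coding with at least 3 sites, if they are nearest in median levels among those with at least 2, or if they are on the list of further genes looked up. The genes, lists and rules were chosen with earlier results of these data known. Some listed items are not reported here.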

Additional observations from a re-analysis of the deposited data

How the results depend on the processing

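No paired analysis was possible because there is 1 library per condition, no test was made and the table does not name the library of either level. Of the 32 alternative values, 25 stayed within 1.5 times the count, or within 1 SD over the 13 sites of the median, that they were compared with. All 18 alternatives to a median were among the 25. That SD is the spread between sites, so it is a wide limit for a median. The median second level went from 24% to 30.8% without PRKCB and still counted as within it. All 7 values that moved were counts. The median ratio of 2.13 ran from 1.85 (leaving out ZMYND8) to 2.43 over its alternatives. With a ratio of at least 3 in place of 2, 4 sites were left of 8. GCAUG was within 20 nt of 0 sites and UGCAUG within 50 nt of 3, against 7 for GCAUG within 50 nt. With 21 nt in place of 31 nt, 4 sites had a further exact copy against 2. Leaving out the 5 sites with 1000 or more similar places, an alternative chosen after seeing the data, left 8 of 13 sites, 7 of the 12 with the higher second level and 4 of the 7 with GCAUG within 50 nt, counts that fall because fewer sites enter. The unknown coverage limits every single level.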
